A study of Mus musculus with 6 samples.

Results

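The genes of the mitochondrial respiratory chain and ATP synthase were compared between livers of 16 h-fasted and 4 h-fasted mice, all male, wild type (WT) and of strain C57BL/6J, with 3 mice and 3 bulk RNA-seq libraries per fasting time. No other treatment is named in the labels, and no age is given for the mice. Members were protein-coding genes whose symbols begin with the roots used for subunits of complexes I to V (Nduf, Sdha to Sdhd, Uqc, Cox4 to Cox8, Atp5) or with the prefixes of the mitochondrially encoded subunits. The rule used no measured value, though it was chosen with earlier results of these data known. It found 110 of 55471 gene lines, of which 97 lie in the nuclear genome and 13 in the mitochondrial genome. By complex there were 51 genes of complex I, 4 of complex II, 12 of complex III, 23 of complex IV and 20 of complex V. The roots also catch 13 nuclear genes that are not structural subunits but assembly or stability factors, such as Ndufaf1, Uqcc1, Cox7a2l and Atp5s, and they miss Cyc1, a structural subunit of complex III. Of the 110 members 103 had enough counts to be tested.

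Oxidative phosphorylation moves electrons from NADH and succinate through complexes I, II and III to cytochrome c and then, through complex IV, to oxygen, and the proton gradient built on the way drives ATP synthesis by complex V. Complex II is encoded wholly in the nucleus, whereas the other complexes combine nuclear subunits, imported after translation in the cytosol, with a few subunits made inside mitochondria from mitochondrial DNA. In the fasting liver this machinery reoxidizes the carriers reduced by fatty acid oxidation and supplies the ATP spent on gluconeogenesis and urea synthesis.

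The libraries held 21825775, 16991034 and 25016855 gene counts after 16 h, and 26572532, 15173653 and 19706810 after 4 h. Levels are given in CPM, the usual scaling of a gene's counts by the normalised library size, and levels between genes as CPM per kilobase of the main transcript. A change is a log2 fold change, 16 h over 4 h, with its standard error (SE), and a gene passed when its edgeR quasi-likelihood p, after Benjamini-Hochberg adjustment over the 13812 genes tested, was under 0.05. The library of 4 h replicate 3 stood apart from its mates. Its 10 lung epithelial marker genes summed to 190 CPM, against 6.01 to 8.80 CPM in the other 5 libraries, and its 10 neutrophil genes to 17.7 CPM, against 2.45 to 5.54 CPM. Not every listed gene was raised there. Of the neutrophil genes S100a8 and S100a9 had 4.8 and 6.0 CPM in it, while Camp had 0, and Ngp and Ltf were higher in 16 h replicate 3. The lung gene Foxj1 was higher in 4 h replicate 2. Kupffer cell markers summed to 116 to 140 CPM after 16 h, and after 4 h to 167, 126 and 230 CPM, the last in replicate 3. Hepatocyte markers, led by Alb, summed to 98500 to 111000 CPM after 16 h and to 106000 to 114000 CPM after 4 h, as fits the liver label. Because the tissue was sampled in bulk, fewer cells of a type and less RNA per cell cannot be told apart in any value here.

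Few respiratory chain genes passed the test between the fasting times. Among the 103 tested members 2 were higher after 16 h than after 4 h, Cox6b2 and Atp5s, and 7 were lower, Ndufs8, Ndufab1, Ndufb6, Ndufaf1, Ndufaf5, Ndufaf6 and Cox7a1. These 9 genes are 8.74% of the members tested, where 18.7% of all tested genes passed, 9.18% of them higher and 9.51% lower. The count of lower members moved with the libraries used. By edgeR it was 9, 10 and 3 without 4 h replicates 1, 2 and 3, where 1037, 1114 and 1393 genes over all were lower. It was 0 when any of the 16 h libraries was left out. The counts over all genes also fell then, to between 671 and 818 higher and between 696 and 823 lower. The mitochondrial genome gave none of 12 by edgeR, also at an unadjusted p under 0.05, and the nuclear genome gave 9 of 91. Of those 12, 5 had only 13 to 1083 counts per library and share over 90% of their sequence windows with other genes. Their counts cannot be read as mRNA levels, so their not passing says nothing about the mitochondrial genome. DESeq2 likewise passed 0 mitochondrial genes, 0 members of complexes II and III and 0 general nuclear subunits of complex IV. Of the 75 tested nuclear subunits that are neither factors nor tissue isoforms, 3 passed, all lower. At an unadjusted p under 0.05 there were 11 of these 75, beside 4631 of the 13812 genes tested. For 73 of these 75 the 95% interval of the change lay within 1 log2 unit of 0 on both sides, and Ndufa11 and Atp5e were the exceptions.

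The size of the nuclear changes was small and mostly of a single sign. The median log2 change was -0.24 for the 91 nuclear members and -0.05 for the 12 mitochondrial members, beside -0.03 for all tested genes. Tested mitochondrial members with under 10% of sequence windows shared with other genes had a median of -0.02. The 5 with over 90% shared, whose counts are uncertain, had -0.32. Changes were negative in 91 of the 103 members (88.3%) and in 53.2% of all tested genes, which were not matched for transcript length. This shared sign moved with the library of 4 h replicate 3, which was the highest of the 6 libraries for 79 of the 91 nuclear members (86.8%), while it was the highest for 27.8% of all tested genes. Relative to the mean of the other 4 h libraries, that library lay 0.50 log2 units higher for the median nuclear member, 0.01 higher for the median mitochondrial member and 0.01 lower for the median gene tested. Without it the median nuclear change was -0.03, the median mitochondrial change -0.12 and the median of all genes -0.003. The mitochondrial genes with under 10% and over 90% of windows shared then had medians of -0.04 and -0.26. Among the nuclear members 52 were then negative and 39 positive. The plot of library deviations shows the same separation gene by gene.

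**Figure D1:**
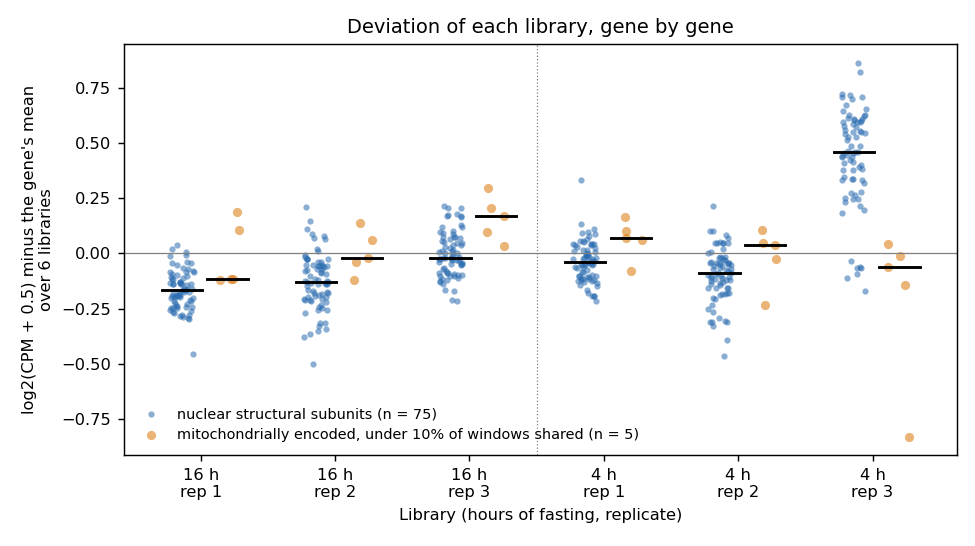
Deviation of log2(CPM + 0.5) from each gene's mean over the 6 libraries, for 75 nuclear structural subunits and for the 5 tested mitochondrially encoded genes with under 10% of sequence windows shared with other genes; black bars are medians. The nuclear medians are -0.17, -0.13 and -0.02 in the 16 h libraries and -0.04, -0.09 and 0.46 in the 4 h libraries, the last in replicate 3.

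By complex, the summed CPM of nuclear members overlapped between the groups in all 5 complexes. Complex I summed to 2541, 2616 and 2856 CPM after 16 h, and to 2792, 2669 and 3934 CPM after 4 h. Complex II summed to 982, 989 and 1083 CPM after 16 h, and to 1027, 1045 and 1089 CPM after 4 h. In complex I the high 4 h value is that of replicate 3, whereas in complex II, the smallest complex, that library lay close to the others. Complex III summed to 1193, 1257 and 1349 CPM after 16 h, and to 1314, 1257 and 1798 CPM after 4 h. Complex IV summed to 1729, 1846 and 1928 CPM after 16 h, and to 1860, 1800 and 2842 CPM after 4 h. Complex V summed to 4024, 4318 and 4618 CPM after 16 h, and to 3957, 3977 and 4842 CPM after 4 h. In complexes III, IV and V the 4 h replicate 3 library was again the highest of the 6. The counts of members passing by complex were 6 lower of 51 tested in complex I, none of 4 in complex II and none of 12 in complex III by edgeR, 1 higher and 1 lower of 18 in complex IV, and 1 higher of 18 in complex V. The share that passed in complex I, 11.8%, all lower, lay near the 9.51% of all tested genes that were lower. At an unadjusted p under 0.05 there were 0 in complex II and 1 in complex III, Uqcr11, beside 4631 of the 13812 genes tested.

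**Figure D2:**
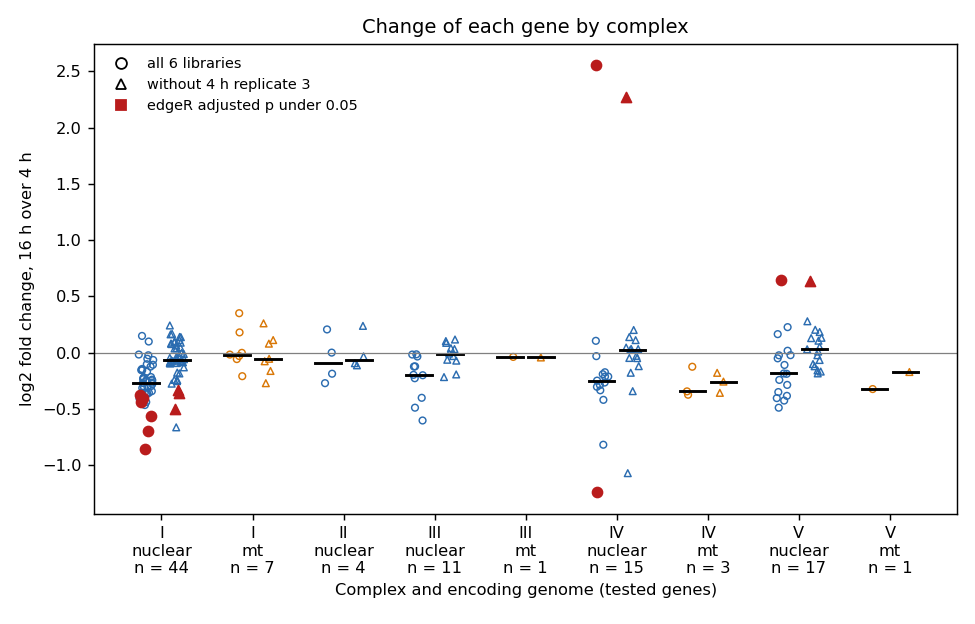
Log2 fold change (16 h over 4 h) of each tested member by complex and encoding genome, from all 6 libraries (circles) and without 4 h replicate 3 (triangles); black bars are medians and red marks have an edgeR adjusted p under 0.05. The nuclear medians of complexes I, III, IV and V are -0.27, -0.20, -0.25 and -0.18 with all libraries and -0.06, -0.01, 0.03 and 0.03 without that library.

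Complex I passes electrons from NADH to ubiquinone, and its catalytic core includes 7 nuclear subunits, most of which hold the flavin or iron-sulfur clusters. Of these 7 Ndufs8 alone fell (14.3%), beside 9.51% of all tested genes that were lower. Ndufs8 (ENSMUSG00000059734, GRCm38 chr19:3908863-3912774, minus strand), which binds a pair of iron-sulfur clusters in the arm that leads to ubiquinone, had 53.4, 66.8 and 63.2 CPM after 16 h, and 78.7, 79.0 and 112.8 CPM after 4 h. Every 16 h library was below every 4 h library. The log2 change was -0.56 (SE 0.15; edgeR adjusted p = 0.0254), and without 4 h replicate 3 it was -0.36 (edgeR adjusted p = 0.0233). Leaving out any of the 16 h libraries raised its edgeR adjusted p to between 0.0595 and 0.109, with the sign kept.

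The other 6 nuclear core subunits did not pass. Ndufv1, which holds the flavin where NADH is oxidized, had 175.7, 173.3 and 196.7 CPM after 16 h and 166.3, 166.6 and 233.7 CPM after 4 h. The groups overlap, and the log2 change of Ndufv1 was -0.05 (SE 0.14). Ndufs1, the largest core subunit, had a log2 change of 0.15 (SE 0.11) and was among the 3 nuclear members in which 4 h replicate 3 was the lowest library. The 29 accessory subunits surround the core, and all 29 changes were negative, with a median of -0.31. Without 4 h replicate 3 that median was -0.06, with 22 negative and 7 positive.

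Among the 29 accessory subunits, 2 fell (6.9%), beside 9.51% of all tested genes that were lower. Ndufab1 (ENSMUSG00000030869, chr7:122085403-122101886, minus strand) is the mitochondrial acyl carrier protein, which also serves mitochondrial fatty acid synthesis. It had 26.9, 27.1 and 27.3 CPM after 16 h, and 30.5, 35.8 and 39.1 CPM after 4 h, with no overlap between the groups. The log2 change was -0.37 (SE 0.12; edgeR adjusted p = 0.0436). Without 4 h replicate 3 it was -0.28 (edgeR adjusted p = 0.0658), and it also missed the threshold with DESeq2 (adjusted p = 0.0572), without 4 h replicate 2 and without any of the 16 h libraries (edgeR adjusted p = 0.108 to 0.134). Its level is uncertain in another way, because 31.2% of the 50-base windows of its transcript occur in another annotated gene and 26.3% of its coding bases lie under another gene's exons.

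Ndufb6 (ENSMUSG00000071014, chr4:40270591-40279421, minus strand), a subunit of the membrane arm, had 28.2, 29.1 and 28.5 CPM after 16 h, and 34.1, 34.2 and 47.8 CPM after 4 h. The groups do not overlap, and the high value is that of 4 h replicate 3. The log2 change was -0.44 (SE 0.14; edgeR adjusted p = 0.0471), and without that library -0.24 (edgeR adjusted p = 0.0674). Without any of the 16 h libraries the edgeR adjusted p was 0.130 to 0.141. An overlapping gene covers 39.0% of the exon bases of Ndufb6.

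The remaining falls in complex I were in assembly factors, proteins that build the complex but are absent from its finished form. They made up 3 of the 8 such factors the rule caught (37.5%), beside 9.51% of all tested genes that were lower. Ndufaf1 (ENSMUSG00000027305, chr2:119655446-119662827, minus strand), which acts on an intermediate of the membrane arm, had 20.6, 25.2 and 23.0 CPM after 16 h, and 28.6, 29.4 and 33.1 CPM after 4 h. No 16 h library reached the lowest 4 h library, and the log2 change was -0.41 (SE 0.12; edgeR adjusted p = 0.0337). Ndufaf5 (ENSMUSG00000027384, chr2:140170649-140203689, plus strand), known in human cells to hydroxylate an arginine of NDUFS7, had 2.31, 2.47 and 2.55 CPM after 16 h, and 3.35, 4.58 and 5.48 CPM after 4 h. This is a low-level transcript, at 41 to 62 counts per library after 16 h and 71 to 105 after 4 h, and its log2 change was -0.86 (SE 0.23; edgeR adjusted p = 0.0234).

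Ndufaf6 (ENSMUSG00000050323, chr4:11051045-11076205, minus strand), which in human cells is needed for an early step of assembly, had 9.61, 6.81 and 9.84 CPM after 16 h, and 13.5, 11.6 and 17.7 CPM after 4 h. Again the groups did not overlap, with a log2 change of -0.70 (SE 0.19; edgeR adjusted p = 0.0244). Without 4 h replicate 3 the log2 changes of Ndufaf1 and Ndufaf6 were -0.33 and -0.50 (edgeR adjusted p = 0.0454 and 0.0487), while Ndufaf5 was at -0.66 (edgeR adjusted p = 0.0616). Each of the 3 missed the threshold when any of the 16 h libraries was left out, Ndufaf1 also without 4 h replicate 1 or 2 and Ndufaf5 also without 4 h replicate 2. The other 5 factors of complex I did not pass, and their log2 changes ran from -0.30 in Ndufaf2 to 0.10 in Ndufaf4.

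**Figure D3:**
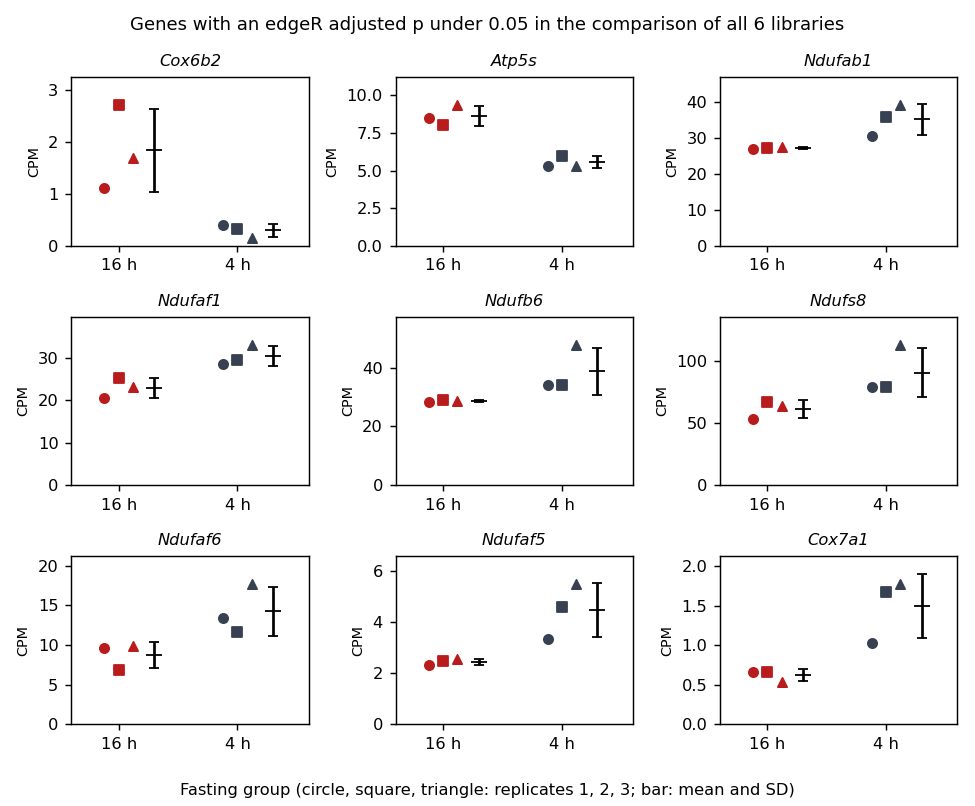
CPM of the 9 members with an edgeR adjusted p under 0.05, by fasting group and replicate, with mean and SD (n = 3 each). In all 9 panels the 16 h and 4 h libraries do not overlap; Cox6b2 and Atp5s are higher after 16 h and the other 7 are lower, and in Ndufs8 and Ndufb6 the 4 h triangle, replicate 3, lies well above its mates.

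Complex II oxidizes succinate in the citric acid cycle, and none of its 4 subunits passed by edgeR. Sdha, the flavoprotein that holds the succinate site, had 499.7, 472.4 and 524.6 CPM after 16 h, and 513.4, 515.5 and 467.0 CPM after 4 h, and its log2 change was 0.00 (SE 0.11). Sdhb, the iron-sulfur subunit, had a log2 change of -0.27 (SE 0.14), and Sdhc and Sdhd, the membrane anchors, had -0.19 (SE 0.11) and 0.21 (SE 0.11). The 16 h libraries were all below the 4 h libraries for Sdhc alone in this complex.

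Complex III hands electrons from ubiquinol to cytochrome c, and here too no member passed by edgeR. The Rieske iron-sulfur protein Uqcrfs1 had 175.3, 191.6 and 210.7 CPM after 16 h, and 181.8, 176.1 and 226.3 CPM after 4 h, with a log2 change of -0.02 (SE 0.13). Uqcr11, a small subunit, had 94.8, 98.1 and 106.6 CPM after 16 h, and 123.1, 106.9 and 190.3 CPM after 4 h. Its libraries did not overlap between the groups, yet it did not pass at -0.49 (SE 0.19; edgeR adjusted p = 0.0974). Uqcc2, an assembly factor, had the lowest estimate of the complex at -0.60 (SE 0.29; edgeR adjusted p = 0.176). Cyc1, the heme subunit that the symbol rule misses and that was added after its values were seen, had 169.2, 205.0 and 212.8 CPM after 16 h, and 180.0, 183.1 and 241.8 CPM after 4 h, with a log2 change of -0.04 (SE 0.14).

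Complex IV reduces oxygen, and several of its nuclear subunits exist as a general form and a form typical of heart, muscle, lung or testis. The 2 members of this complex that passed were both such tissue forms, and both were rare. Cox6b2 (ENSMUSG00000051811, chr7:4751792-4753094, minus strand), the testis form of a subunit that faces the intermembrane space, had 1.11, 2.71 and 1.69 CPM after 16 h, and 0.41, 0.32 and 0.16 CPM after 4 h. These are 25, 45 and 41 counts after 16 h, and 11, 5 and 3 counts after 4 h. The groups did not overlap, and the log2 change of 2.55 (SE 0.46; edgeR adjusted p = 0.0032) corresponds to 5.87-fold. It passed in all 13 alternative analyses, with a log2 change of 2.20 to 2.94 when libraries were left out in turn.

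The general form Cox6b1 did not pass. It had 111.9, 116.8 and 124.1 CPM after 16 h, and 118.4, 123.5 and 188.9 CPM after 4 h, with a log2 change of -0.29 (SE 0.17). Per length, Cox6b2 made up 1.30%, 2.99% and 1.78% of the sum of both forms after 16 h, and 0.45%, 0.35% and 0.11% after 4 h. Cox6b1 thus stayed at 97.0% or more of the pair in each library.

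Cox7a1 (ENSMUSG00000074218, chr7:30184144-30186078, plus strand), the form of heart, muscle and brown fat, had 0.67, 0.66 and 0.54 CPM after 16 h, and 1.03, 1.68 and 1.78 CPM after 4 h. That is 11 to 15 counts per library after 16 h and 26 to 34 after 4 h. The groups did not overlap, and the log2 change was -1.24 (SE 0.35; edgeR adjusted p = 0.0291). DESeq2 gave an adjusted p of 0.0516, and edgeR without 4 h replicate 3 gave -1.07 (adjusted p = 0.0750). It also missed the threshold without 4 h replicate 2 or any of the 16 h libraries (edgeR adjusted p = 0.0765 to 0.118). The liver form Cox7a2 had 79.0, 82.6 and 90.4 CPM after 16 h, and 92.6, 99.2 and 145.3 CPM after 4 h, with a log2 change of -0.42 (SE 0.16; edgeR adjusted p = 0.0910). Per length, Cox7a1 was 1.24% ± 0.22 of both forms after 16 h and 2.20% ± 0.49 after 4 h (SD, n = 3 each).

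Muscle markers were low, and the adipocyte list was carried by Adipor2, a receptor at 382 CPM or more in each library. The 10 skeletal and cardiac muscle markers summed to 6.45, 3.68 and 4.61 CPM after 16 h, and to 9.05, 4.96 and 8.51 CPM after 4 h. Of the 3 muscle markers tested, Myh6, the cardiac myosin heavy chain, fell, with 2.14, 2.59 and 1.85 CPM after 16 h, and 3.09, 3.48 and 4.81 CPM after 4 h (log2 change -0.80, SE 0.24; edgeR adjusted p = 0.0421). Myh4 did not pass at -0.76 (SE 1.09, edgeR adjusted p = 0.671). Mylpf went the other way and did not pass at 0.41 (SE 0.42, edgeR adjusted p = 0.528). Of all tested genes 9.51% were lower. The 8 genes of the adipocyte list summed to 410, 396 and 383 CPM after 16 h, and to 534, 449 and 414 CPM after 4 h. Nearly all of that was Adipor2, with 409.8, 395.3 and 382.3 CPM after 16 h, and 528.7, 447.3 and 412.1 CPM after 4 h. Adipoq, Plin1, Cidea, Ucp1, Lep and Retn were each at 0.33 CPM or less in every library. The sum therefore followed Adipor2 and gives no measure of adipocytes. Of the 2 genes of that list tested, Cfd, an adipocyte-secreted complement factor, fell, with 0.58, 0.24 and 0.49 CPM after 16 h, and 5.37, 0.90 and 2.04 CPM after 4 h (log2 change -2.66, SE 0.64; edgeR adjusted p = 0.0201). Adipor2, the other gene of that list tested, did not pass at -0.23 (SE 0.12; edgeR adjusted p = 0.208). Neither Myh6 nor Cfd passed without 4 h replicate 3 (edgeR adjusted p = 0.118 and 0.0658). Ucp1, which defines brown fat, was at 0.06 CPM or less in each library, and Lep had 0 counts in all. The part of other tissues in the change of Cox7a1 was not tested.

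The remaining tissue forms of complex IV were at or near 0. Cox7b2 and Cox8c, both testis forms, had 0 counts in all 6 libraries, which allows up to 3 counts over them for counting error alone. Cox4i2, the lung form, had 0 counts in each 16 h library, and 0, 1 and 7 counts in the 4 h libraries, the 7 in replicate 3, which also had the lung markers. Cox6a2, the heart and muscle form, had 4, 4 and 2 counts after 16 h, and 2, 0 and 0 after 4 h. Cox8b had 3, 2 and 2 counts after 16 h, and 4, 1 and 5 after 4 h. None of these 5 genes was tested. Ndufa4l2, a paralog of Ndufa4 that is induced by hypoxia in other cells, was tested and did not pass, with 1.11, 0.90 and 0.74 CPM after 16 h and 0.74, 1.74 and 2.51 CPM after 4 h.

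The 11 general nuclear subunits of complex IV gave 0 calls by edgeR. At an unadjusted p under 0.05 there was 1, Cox7a2, beside 4631 of the 13812 genes tested. Cox4i1, the general form of the largest nuclear subunit, had 247.9, 221.9 and 264.0 CPM after 16 h, and 252.2, 195.6 and 402.3 CPM after 4 h. Cox6a1 had 270.6, 291.5 and 314.8 CPM after 16 h, and 293.7, 282.1 and 529.6 CPM after 4 h. For all 11, 4 h replicate 3 was the highest of the 6 libraries. Their median change of -0.25 became 0.03 without that library, with 5 negative and 6 positive.

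Complex V turns the proton gradient into ATP. The member that rose was Atp5s (ENSMUSG00000054894, chr12:69724950-69744660, plus strand), which RefSeq now names Dmac2l, a factor associated with the synthase and no part of its rotary machine. It had 8.50, 8.01 and 9.35 CPM after 16 h, and 5.30, 5.99 and 5.33 CPM after 4 h. The groups did not overlap, and the log2 change was 0.64 (SE 0.15; edgeR adjusted p = 0.0128), which is 1.56-fold. It was 0.63 without 4 h replicate 3 (edgeR adjusted p = 0.0142) and passed in 12 of 13 alternative analyses, the exception being the one without 16 h replicate 3 (edgeR adjusted p = 0.0716).

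The 2 subunits that form the catalytic ring of complex V were slightly higher after 16 h in every library but did not pass. Atp5b, the catalytic beta subunit, had 1182, 1291 and 1313 CPM after 16 h, and 1021, 1076 and 1138 CPM after 4 h. Its log2 change was 0.23 (SE 0.11; edgeR adjusted p = 0.166), and without 4 h replicate 3 it was 0.28 (edgeR adjusted p = 0.0568). Atp5a1, the alpha subunit, had 1015, 1104 and 1203 CPM after 16 h, and 972, 994 and 998 CPM after 4 h, with a log2 change of 0.16 (SE 0.11; edgeR adjusted p = 0.319). No overlap with 16 h above was seen in 4 tested members (Cox6b2, Atp5s, Atp5b and Atp5a1) and no overlap with 16 h below in 15, beside 19.7% and 19.7% of all tested genes.

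The c ring, which turns in the membrane, is encoded by 3 genes with identical mature proteins. Per length, Atp5g3 made up 62.4% ± 1.0 of their sum after 16 h and 58.8% ± 1.4 after 4 h (SD, n = 3 each). Atp5g1 made up 22.6% ± 0.55 after 16 h and 27.4% ± 2.1 after 4 h, and Atp5g2 14.9% ± 1.5 after 16 h and 13.7% ± 0.79 after 4 h. The 16 h and 4 h shares did not overlap for Atp5g3 or Atp5g1. None of the 3 genes passed by edgeR, at log2 changes of -0.02 (SE 0.14), -0.40 (SE 0.17) and 0.02 (SE 0.12) for Atp5g3, Atp5g1 and Atp5g2. All of the windows of Atp5g2 and 66.0% of those of Atp5g1 occur in annotated pseudogenes, so the split between the genes depends on how such reads were counted.

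Levels per length varied widely inside each complex, although the proteins are present in fixed ratios. In the mean of the 6 libraries the nuclear subunits of complex V ran from 9.74 CPM per kilobase in Atp5o and 29.0 in Atp5l to 572 in Atp5g3 and 611 in Atp5b. Complex I ran from 9.59 in Ndufb2 and 21.3 in Ndufa11 to 153 in Ndufb10 and 209 in Ndufa6, with a median of 75.9 CPM per kilobase. Complex III ran from 93.8 in Uqcrc2 to 722 in Uqcrq, complex IV from 63.0 in Cox5a to 579 in Cox6a1, and complex II from 51.8 in Sdhc to 179 in Sdhb. Some of the lowest levels belong to genes touched by the annotation, though Sdhc has no coding overlap and the c ring genes with the most shared windows were not among the lowest. Exons of other genes cover 72.7% of the coding bases of Ndufb2 and 43.7% of those of Atp5o, and 68.5% of the windows of Atp5l occur in other genes. Another identifier for Atp5o lies entirely under other exons and had 0 counts in all libraries. In all, 27 of the 97 nuclear members had over 15% of windows shared or over 15% of exon bases overlapped, and their levels are uncertain for that reason.

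The change of a nuclear subunit moved with the length of its transcript. In the 49 subunits under 1 kb the 4 h replicate 3 library lay 0.61 log2 units above its mates in the median, in the 21 from 1 to 2 kb 0.41, and in the 5 of 2 kb and over 0.02. All tested protein-coding genes showed the same order, with 0.43, 0.18 and -0.09. The median log2 change of the subunits in these 3 length classes was -0.29, -0.12 and 0.00. For all tested protein-coding genes of the same lengths it was -0.30, -0.13 and 0.04, close to the subunits. Across the 75 subunits, which share the same libraries, Spearman's rho between length and log2 change was 0.44 with all libraries and 0.18 without 4 h replicate 3. Respiratory subunits are mostly short transcripts, and the part of length in their changes was not tested.

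**Figure D4:**
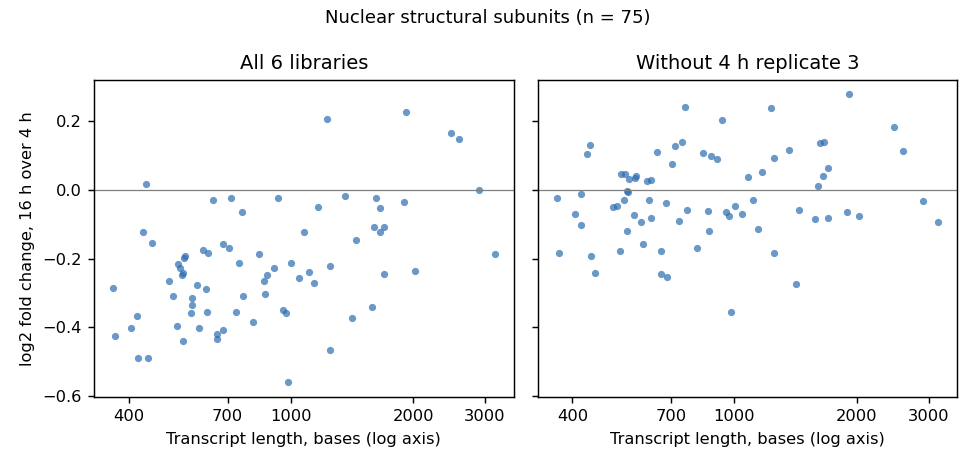
Log2 fold change (16 h over 4 h) of 75 nuclear structural subunits against the length of the main transcript (log axis), with all 6 libraries and without 4 h replicate 3. Spearman's rho is 0.44 in the left panel and 0.18 in the right panel, where the points lie around 0.

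The mitochondrial genome contributes 13 mRNAs, 7 of complex I, 1 of complex III, 3 of complex IV and 2 of complex V, all transcribed from promoters in the control region and cut apart afterwards. They took 4.79%, 4.63% and 5.19% of all gene counts after 16 h, and 5.53%, 5.27% and 4.51% after 4 h, against 1.08%, 1.08% and 1.15% after 16 h, and 1.12%, 1.10% and 1.41% after 4 h, for the nuclear members. The mitochondrial share of all member counts was 81.6% ± 0.37 after 16 h and 80.7% ± 3.91 after 4 h (SD, n = 3 each). The groups overlapped, and the wide 4 h spread came from replicate 3, at 76.2%, with the other 4 h libraries at 83.2% and 82.7%. Those 2 libraries lay above all 16 h libraries, so the sign of the difference depends on replicate 3.

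The most abundant mitochondrial mRNA was mt-Co1, the catalytic subunit of complex IV, with 18005, 17855 and 20491 CPM after 16 h, and 22177, 20697 and 18570 CPM after 4 h. Its groups overlapped at a log2 change of -0.12 (SE 0.12; edgeR adjusted p = 0.502). mt-Cytb, which holds both ubiquinone sites of complex III, had 9202, 9160 and 11215 CPM after 16 h, and 10695, 9777 and 9884 CPM after 4 h, with a log2 change of -0.04 (SE 0.12). mt-Nd1 and mt-Nd2, subunits of the membrane arm of complex I, had log2 changes of -0.03 (SE 0.11) and -0.02 (SE 0.12). mt-Nd4, a proton-pumping subunit, had 3434, 3705 and 4004 CPM after 16 h, and 4089, 4292 and 4496 CPM after 4 h. It is the mitochondrial gene whose groups did not overlap, but it did not pass at -0.21 (SE 0.11; edgeR adjusted p = 0.220).

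mt-Nd5, another pumping subunit, had 4981, 4825 and 5372 CPM after 16 h, and 4905, 4532 and 2464 CPM after 4 h. The 4 h replicate 3 library was far below the other 5, while mt-Nd4 and mt-Cytb were not low in it. The log2 change was 0.35 (SE 0.22; edgeR adjusted p = 0.292) with all libraries and 0.11 (edgeR adjusted p = 0.483) without that library. mt-Nd6, the mRNA made from the other strand, had 749.2, 677.5 and 802.5 CPM after 16 h, and 658.9, 591.6 and 716.8 CPM after 4 h, with overlapping groups and a log2 change of 0.18 (SE 0.12).

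A block of adjoining mitochondrial genes had almost no counts. Along the genome, mt-Co2, mt-Atp8, mt-Atp6, mt-Co3, mt-Nd3 and mt-Nd4l lie between mt-Co1 and mt-Nd4, and these 6 had 3 to 1083 counts per library, where mt-Co1 and mt-Nd4 had 61484 to 602878. mt-Co2, which receives electrons from cytochrome c, had 501, 263 and 746 counts after 16 h, and 966, 302 and 620 after 4 h. mt-Atp6, the proton channel subunit of complex V, had 289, 160 and 504 counts after 16 h, and 586, 169 and 415 after 4 h. mt-Nd4l had 35, 17 and 38 counts after 16 h, and 65, 13 and 15 after 4 h. At that depth only large changes could be seen, and the log2 changes of -0.34 (SE 0.28), -0.32 (SE 0.35) and -0.00 (SE 0.38) for mt-Co2, mt-Atp6 and mt-Nd4l did not pass. mt-Co3, mt-Nd3 and mt-Atp8 were alike, with 282 to 1083, 17 to 93 and 3 to 18 counts per library, the last too few to test.

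Of the 6, 5 have a nearly exact copy in nuclear DNA on chromosome 1, where annotated pseudogenes lie side by side in the span chr1:24611535-24616197 (GRCm38, GENCODE M21). Of the 50-base windows of mt-Co2, 99.5% occur in Gm28661, of mt-Atp6 99.5% in Gm10925, of mt-Co3 99.9% in Gm28437, of mt-Nd3 98.0% in Gm28438 and of mt-Nd4l 98.8% in Gm10222. Over the aligned bases, mt-Co2 matched its copy at 681 of 681, mt-Atp6 at 678 of 678 and mt-Nd4l at 294 of 294. The first 60 bases of mt-Nd3 and of its copy are shown because they hold the only difference over the aligned bases of these 5 pairs, given as T3C and counted from the first base of mt-Nd3, with that base in capitals.
mt-Nd3: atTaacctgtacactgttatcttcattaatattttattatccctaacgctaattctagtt
Gm28438: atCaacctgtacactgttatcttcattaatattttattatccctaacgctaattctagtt
A read of 50 bases from almost any place in these genes has the same sequence at both loci, and the labels do not say how reads with more than 1 alignment were counted. The part of the copies in the low counts was not tested. mt-Atp8, with 0% of windows in another annotated gene, lies between mt-Co2 and mt-Atp6, whose copies flank an unannotated stretch, and no genome sequence was at hand to compare it.

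The copies themselves had counts. Gm10925 had 823, 504 and 1299 counts after 16 h, and 1516, 652 and 860 after 4 h, more than mt-Atp6 in each library. Gm28661 had 581, 250 and 837 counts after 16 h, and 986, 324 and 688 after 4 h, close to those of mt-Co2. The counts of these 5 mitochondrial genes cannot be read as the level of their mRNA, and the comparison between genomes rests on mt-Nd1, mt-Nd2, mt-Nd5, mt-Nd6 and mt-Cytb, with under 10% of windows shared, and on mt-Co1 and mt-Nd4, with 51.1% and 62.2%. The plot of mitochondrial genes sets both values side by side.

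**Figure D5:**
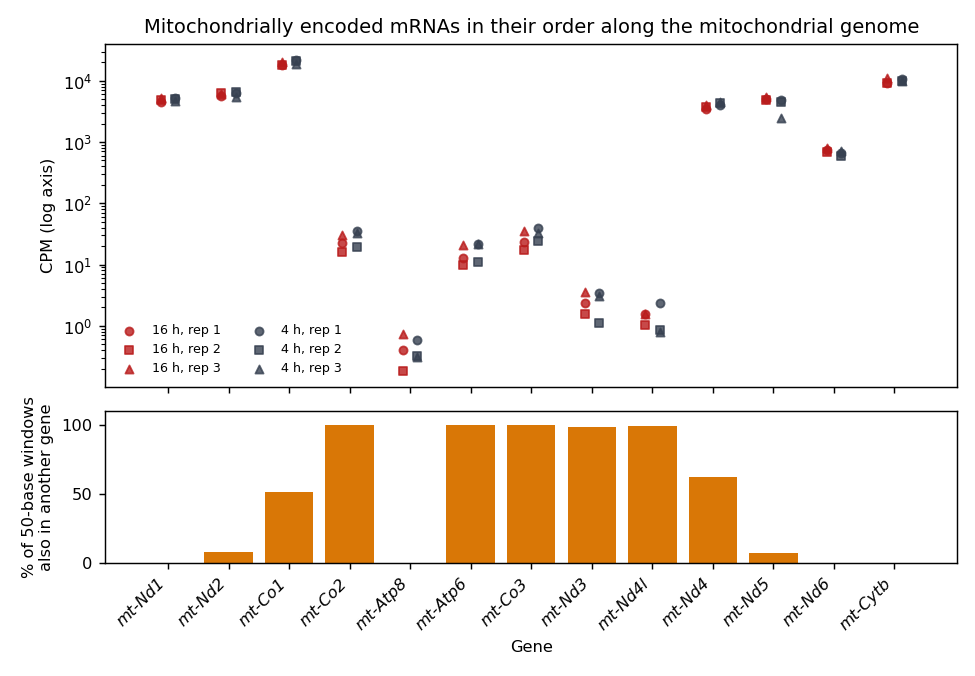
CPM of the 13 mitochondrially encoded mRNAs in each library (log axis), in their order along the mitochondrial genome, above the percentage of each gene's 50-base windows that also occur in another annotated gene. The 5 genes with 98.0% or more of windows shared, and mt-Atp8 among them, lie far below mt-Co1 and mt-Nd4 on either side.

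Promoters of respiratory genes are known for sites of NRF1 and of the ETS factor GABPA. RefSeq promoter windows (GRCm38.p6, 250 bases before to 50 after the start) matched 79 of the 96 nuclear member symbols. The NRF1 core CGCATGCG was present on either strand in 11 of the 79 (13.9%) and in 2.07% of 27025 genes, and the ETS core CCGGAAG in 18 of the 79 (22.8%) and in 9.93% of genes. Neither core contains the letters of the other. Cox6a1, Uqcr11, Atp5j, Atp5k and Atp5l held both. None of the 4 matched tissue isoforms held either, where 11.6% of all genes did, and 4 genes are too few to compare. Subunits with either core had a median log2 change of -0.28 (n = 20) and those with neither -0.23 (n = 43), which became -0.07 and -0.03 without 4 h replicate 3. Among genes whose windows are not shown, Cox7a1 fell and Atp5s rose with neither core, and Cox6b1 held the ETS core and did not pass. Ndufaf1 fell with an ETS core and Ndufaf5 with an NRF1 core. Windows are shown for Ndufs8 and Ndufb6, structural subunits that fell, and for Cox6b2, the tissue form that rose. Capitals mark the ETS core, which reads as its reverse complement here, and Cox6b2 has neither core.
Ndufs8, chr19:3912725-3913024, minus strand: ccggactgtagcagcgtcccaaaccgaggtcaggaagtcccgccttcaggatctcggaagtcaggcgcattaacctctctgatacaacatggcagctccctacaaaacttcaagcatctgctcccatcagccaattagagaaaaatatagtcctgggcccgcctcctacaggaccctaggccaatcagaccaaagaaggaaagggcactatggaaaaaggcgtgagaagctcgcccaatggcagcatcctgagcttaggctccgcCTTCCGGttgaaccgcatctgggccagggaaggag
Ndufb6, chr4:40279372-40279671, minus strand: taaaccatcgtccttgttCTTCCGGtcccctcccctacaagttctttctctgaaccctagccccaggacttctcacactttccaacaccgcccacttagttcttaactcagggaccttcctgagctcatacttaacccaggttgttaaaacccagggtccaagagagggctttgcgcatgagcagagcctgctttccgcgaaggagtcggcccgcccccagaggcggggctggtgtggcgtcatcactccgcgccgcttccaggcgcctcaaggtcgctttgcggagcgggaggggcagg
Cox6b2, chr7:4753045-4753344, minus strand: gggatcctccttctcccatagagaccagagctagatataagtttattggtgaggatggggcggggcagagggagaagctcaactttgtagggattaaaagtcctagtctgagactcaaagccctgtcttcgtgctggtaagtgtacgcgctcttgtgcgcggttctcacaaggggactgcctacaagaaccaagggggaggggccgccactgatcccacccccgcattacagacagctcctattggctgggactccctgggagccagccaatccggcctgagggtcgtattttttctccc
A match is a description of letters and not a site shown to be used.

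Beside the subunits, 5 lists of related genes were read. Of 26 tested genes for mobile carriers, ubiquinone synthesis and other ubiquinone reductases, 1 rose and 5 fell, with a median log2 change of -0.19, where 9.18% of all tested genes were higher and 9.51% lower. Etfdh, which feeds electrons from fatty acid oxidation into ubiquinone, had 502.1, 495.2 and 541.4 CPM after 16 h, and 278.4, 261.3 and 218.2 CPM after 4 h. It rose by 1.02 (SE 0.12; edgeR adjusted p = 0.000237) on the log2 scale, with no overlap between the groups. Sqor, which feeds in electrons from sulfide, fell, with 95.0, 83.3 and 93.6 CPM after 16 h, and 141.2, 137.6 and 137.3 CPM after 4 h (log2 change -0.61, SE 0.10; edgeR adjusted p = 0.00203). Coq2, an enzyme of ubiquinone synthesis, fell with a log2 change of -0.50 (SE 0.11; edgeR adjusted p = 0.00971). Etfa, the most abundant gene of the list and the electron donor to Etfdh, did not pass at -0.04 (SE 0.11).

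Of 40 tested assembly factors outside the symbol rule, 3 rose and 4 fell, with a median of -0.17, again beside 9.18% and 9.51% of all tested genes. Coa5, a complex IV factor, rose by 0.39 (SE 0.10; edgeR adjusted p = 0.0208), whereas Coa3, which stabilizes newly made mt-Co1 protein, fell at -0.47 (SE 0.14; edgeR adjusted p = 0.0371). Bcs1l, which inserts the Rieske protein into complex III, fell at -0.43 (SE 0.13; edgeR adjusted p = 0.0384), and Pnkd, the most abundant of the list, rose by 0.34 (SE 0.11; edgeR adjusted p = 0.0438). Without 4 h replicate 3 the list had 5 higher and 1 lower, where 11.1% of all genes were higher and 9.73% lower, and Bcs1l did not pass (edgeR adjusted p = 0.0580). The same fit kept 2 members of the respiratory chain higher, Cox6b2 and Atp5s, and 3 lower, Ndufs8, Ndufaf1 and Ndufaf6.

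Of 33 tested genes that maintain or express mitochondrial DNA, 2 passed, both higher, with a median of 0.05, a smaller share than the 18.7% of all tested genes that passed and the 9.18% that were higher. Hsd17b10, a dehydrogenase that is also a part of mitochondrial RNase P, had 362.9, 404.9 and 442.9 CPM after 16 h, and 162.2, 146.7 and 220.5 CPM after 4 h (log2 change 1.19, SE 0.15; edgeR adjusted p = 0.000423). Tfb2m, needed to start mitochondrial transcription, had 31.3, 35.9 and 29.7 CPM after 16 h, and 25.6, 21.2 and 17.1 CPM after 4 h (log2 change 0.60, SE 0.15; edgeR adjusted p = 0.0175). Both were higher after 16 h in every library, beside mitochondrial mRNAs of which none passed. Tbrg4, which acts on mitochondrial mRNA, did not pass at 0.34 (SE 0.11; edgeR adjusted p = 0.0593).

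Among 17 tested regulators of respiratory genes 4 rose and 1 fell, with a median of 0.20, beside 9.18% of all tested genes higher and 9.51% lower. Ppara, the nuclear receptor of the fasting response and the most abundant of the list, had 124.5, 119.4 and 111.0 CPM after 16 h, and 78.9, 66.3 and 55.3 CPM after 4 h (log2 change 0.82, SE 0.13; edgeR adjusted p = 0.00164). Esrrg, an orphan receptor that binds promoters of respiratory genes, had 2.002, 3.80 and 3.25 CPM after 16 h, and 0.96, 1.03 and 0.99 CPM after 4 h (log2 change 1.59, SE 0.30; edgeR adjusted p = 0.00394). Its level was low, but the groups did not overlap. Ppargc1b, a coactivator of such receptors, fell, with 5.74, 7.59 and 5.23 CPM after 16 h, and 9.64, 12.1 and 15.6 CPM after 4 h (log2 change -1.01, SE 0.20; edgeR adjusted p = 0.00561). Its paralog Ppargc1a, named after its values were seen, moved the other way, with 15.3, 22.7 and 17.8 CPM after 16 h, and 6.95, 12.5 and 8.30 CPM after 4 h (log2 change 1.02, SE 0.22; edgeR adjusted p = 0.0096). Ppargc1a did not pass without 4 h replicate 3 (edgeR adjusted p = 0.0709).

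Of 29 tested membrane and import genes 4 passed, all higher, with a median of 0.05, where 18.7% of all tested genes passed and 9.18% were higher. With 4 h replicate 3 left out, 6 rose and 1 fell, where 11.1% and 9.73% of all genes did. Tomm20, an import receptor of the outer membrane, had 58.9, 57.5 and 60.1 CPM after 16 h, and 41.6, 38.4 and 38.2 CPM after 4 h (log2 change 0.58, SE 0.10; edgeR adjusted p = 0.00213). Timm23, the channel of the inner membrane, rose at 0.40 (SE 0.10; edgeR adjusted p = 0.0206), and Tomm70a, another receptor, at 0.38 (SE 0.11; edgeR adjusted p = 0.0301). Slc25a5, the most abundant of the list and an ADP/ATP carrier, did not pass at 0.16 (SE 0.14).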

How the data were processed

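Per the series' design text and the submitters' processing notes, the authors trimmed reads with Trimmomatic, inspected them with FastQC, aligned them to GRCm38 (mm10) with STAR and counted them per gene with HTSeq; DESeq2 is named for their own comparison. Neither source states tool versions, annotation release, strand setting or read length. The deposited values are raw counts per Ensembl gene, 1 file per library, as the authors' counter wrote them. Lines that name no gene, 6.44% to 7.14% outside genes and 5.78% to 6.59% ambiguous, stayed out of library sizes.

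Identifiers were named with GENCODE M21, which holds 55230 of 55471. The test was that of edgeR 4.0.16 (R 4.3.3), with filterByExpr, TMM factors and a robust quasi-likelihood model of fasting time alone, 2-sided and adjusted over 13812 genes at 0.05. The biological coefficient of variation was 14.3%. Transcript length is that of the best-ranked principal transcript, chosen after union lengths were seen to distort levels. Shared windows are 50-base stretches found on either strand in a transcript of another, non-overlapping gene. In a simulation of this comparison edgeR called 44 of 50 genes raised by a log2 change of 1, 40 of 50 lowered by 1, 14 of 50 raised by 0.5 and 17 of 50 lowered by 0.5. Simulated counts were drawn gene by gene, without a shift shared by many genes of a library such as that of 4 h replicate 3. Genes with few counts were not among those changed. The recovery therefore does not cover low-count members or members that moved with that library. No pair of libraries agreed within sampling noise (chi-square per degree of freedom of 17.3 to 68.5). Nothing beyond the group sizes says how mice were housed or handled, so p-values measure the spread between these libraries.

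The members, the complexes and the related lists were chosen with earlier results of these data known. Named were all mitochondrial genes, all members that passed, the most abundant and most changed of each class, the isoform groups, the untested members and, of each related list, the most abundant gene and those with the smallest adjusted p; Cyc1 was added after its values were seen. Alternatives were other size factors, filters and tools, mitochondrial genes left out of library sizes, the replicate block, and each library left out in turn.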

Additional observations from a re-analysis of the deposited data

How the results depend on the processing

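Main counts of members were 2 higher and 7 lower, where 1268 genes over all were higher and 1313 lower. With no filter beyond 1 count 17 members were lower and 3 higher, where 1555 genes over all were lower and 1558 higher. In that setting mt-Nd5 passed at a log2 change of 0.37 (edgeR adjusted p = 0.0479). With a replicate block 12 were lower and 2 higher, where 1396 genes over all were lower and 1352 higher. Whether the replicate numbers pair the libraries was not settled. Same-numbered libraries deviated together at low correlations of 0.09, 0.09 and 0.05. The 16 h replicates 1 and 2 correlated best with their own number, but 16 h replicate 3 with 4 h replicate 1 (0.07). Leaving out each library in turn gave 0 to 10 members lower and 1 to 2 higher, a median nuclear change of -0.32 to -0.03, and 671 to 1594 genes higher and 696 to 1393 lower over all genes. Among the 9 members that passed and the 12 tested mitochondrial genes, signs turned in mitochondrial genes whose change was near 0. Without 4 h replicate 3 negative nuclear members numbered 52, against 81 with all libraries, and the mitochondrial share differed by -1.40 percentage points (16 h minus 4 h), against 0.853. Leaving out libraries gave -0.084 to 0.033 for mt-Nd1, -0.076 to 0.053 for mt-Nd2, -0.398 to 0.252 for mt-Nd3, -0.271 to 0.801 for mt-Nd4l and -0.137 to 0.022 for mt-Cytb. mt-Nd2 was 0.004 with no filter and 0.001 with DESeq2, and mt-Nd4l was 0.009 with DESeq2 size factors, 0.015 with no filter, 0.132 with the replicate block and 0.039 with DESeq2. The cause was not tested. Other size factors, library totals and a filter of 1 CPM in 3 libraries left 2 members higher and 7 or 8 lower, and DESeq2 5 lower. Over all genes the former gave 1054 to 1324 higher and 1285 to 1377 lower, and DESeq2 gave 1405 and 1275. Depth limits Cox6b2, Cox7a1, Ndufaf5 and the mitochondrial genes with nuclear copies, which had few counts.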
